A study of Mus musculus with 67 samples.

Results

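The comparison concerned livers that lacked both Rev-erb genes, sampled in the dark phase under 2 ways of feeding. Its members were chosen by sample title: the 6 libraries labelled ReverbLDKO at ZT15, ZT18 and ZT21, out of 67 libraries in the series, with 1 library per time and feeding. Zeitgeber time (ZT) counts hours from lights on. The restricted group (3 libraries) came from mice whose food was available in a daily window, and the ad libitum group (3 libraries) from mice fed without such a limit. All were C57BL/6 mice aged 24 weeks with a liver double knockout of Rev-erb alpha and beta (Nr1d1 and Nr1d2), kept on high-fat food for 12 weeks. The sources used here do not give the hours of the window, the Cre driver or the sex. Against these stood the light-phase libraries of the same knockout (3 restricted, 3 ad libitum) and the dark-phase libraries of wild type (WT, 4 and 4) and of the Cry1 and Cry2 double knockout (CryDKO, 3 and 3), all on the same diet. The fit of all 67 libraries also held a Bmal1 liver knockout on that diet (Bmal1LKO), with 2 restricted and 2 ad libitum libraries in the dark phase. The dark-phase CryDKO libraries were at ZT15, ZT18 and ZT21, but those of WT and Bmal1LKO were at ZT16 and ZT20. The labels do not say that the libraries came from separate animals, and within each feeding group the times stand as replicates. The p-values thus reflect spread between libraries, which includes change with time of day and may also be technical. In the fit of all 67 libraries this spread is pooled over 4 genotypes.

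REV-ERB alpha and beta are nuclear receptors that repress transcription, and in liver they restrain the clock activator gene Arntl, lipid synthesis genes and many genes tied to feeding. In the mouse, liver also carries a strong sex bias: the pattern of growth hormone pulses keeps a set of male-biased genes on and a set of female-biased genes, several of them cytochrome P450 genes, off in males. Hepatocytes secrete most blood proteins, and during inflammation interleukin 6 acting through STAT3 raises the subset known as acute-phase proteins.

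In 2 pairs of near-identical cytochrome P450 genes, Cyp2a4 and Cyp2b9 stood at the larger difference of their pair. The sequences shown belong to these pairs and to 2 neighbouring fibrinogen genes that varied together. Each is the 250 bases before the RefSeq gene start, 5′ to 3′ on the gene's strand, from the GRCm38.p6 build. For Cyp2a4 (chr7:26306942-26307191, plus strand) and Cyp2a5 (chr7:26835089-26835338, plus strand) capitals mark the 4 bases that differ, with 245 of 249 aligned bases identical (98.4%).
Cyp2a4: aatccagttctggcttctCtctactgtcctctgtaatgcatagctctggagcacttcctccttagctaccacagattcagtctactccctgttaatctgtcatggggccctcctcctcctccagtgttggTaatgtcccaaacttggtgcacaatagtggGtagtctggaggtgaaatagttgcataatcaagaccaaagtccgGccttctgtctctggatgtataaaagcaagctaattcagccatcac
Cyp2a5: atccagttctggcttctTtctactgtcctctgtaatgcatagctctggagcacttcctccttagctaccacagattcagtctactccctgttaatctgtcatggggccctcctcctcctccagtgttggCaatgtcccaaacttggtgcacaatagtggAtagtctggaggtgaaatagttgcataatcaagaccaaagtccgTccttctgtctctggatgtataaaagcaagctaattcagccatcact
For Cyp2b9 (chr7:26173159-26173408, plus strand) and Cyp2b13 (chr7:26061245-26061494, plus strand) 248 of 250 bases were identical (99.2%). Capitals mark AGGTCA, the core half-site read by REV-ERB and other nuclear receptors.
Cyp2b9: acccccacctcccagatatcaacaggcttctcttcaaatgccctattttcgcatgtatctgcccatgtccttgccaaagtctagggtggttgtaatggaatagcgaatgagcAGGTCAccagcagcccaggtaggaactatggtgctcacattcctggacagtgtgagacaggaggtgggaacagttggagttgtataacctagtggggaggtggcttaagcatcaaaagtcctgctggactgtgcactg
Cyp2b13: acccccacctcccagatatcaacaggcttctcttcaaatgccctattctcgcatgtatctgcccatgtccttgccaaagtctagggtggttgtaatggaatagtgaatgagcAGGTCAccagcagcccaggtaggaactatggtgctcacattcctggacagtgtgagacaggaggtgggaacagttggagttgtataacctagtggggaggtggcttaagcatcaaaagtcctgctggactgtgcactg
For Fga (chr3:83025903-83026152, plus strand) and Fgb (chr3:83049864-83050113, minus strand) capitals mark TTCNNNGAA, the palindrome read by STAT factors.
Fga: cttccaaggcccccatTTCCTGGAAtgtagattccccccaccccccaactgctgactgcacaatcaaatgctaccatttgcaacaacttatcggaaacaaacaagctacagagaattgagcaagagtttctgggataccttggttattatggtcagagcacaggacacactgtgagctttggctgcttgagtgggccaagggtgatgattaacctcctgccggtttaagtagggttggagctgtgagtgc
Fgb: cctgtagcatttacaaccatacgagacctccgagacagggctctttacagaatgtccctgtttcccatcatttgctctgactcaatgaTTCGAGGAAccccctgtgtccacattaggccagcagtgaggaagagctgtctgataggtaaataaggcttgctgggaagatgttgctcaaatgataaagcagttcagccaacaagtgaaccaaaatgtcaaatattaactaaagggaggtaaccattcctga
Searched on both strands, AGGTCA was in 14.0% and TTCNNNGAA in 7.02% of 32851 promoter windows of this length, and a match describes letters, not binding. Because reads of such near-identical genes can be divided or lost in counting, levels within the Cyp2a, Cyp2b, Gstm, Saa and Serpina1 families are uncertain.

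Values are FPKM as the authors deposited them, and differences are on the log2(FPKM + 1) scale ± SE, restricted minus ad libitum. Recovered depth was 13.7 to 19.4 M reads in restricted and 16.8 to 36.0 M in ad libitum libraries. All 6 expressed the Y-linked gene Ddx3y (13.9 to 18.9 FPKM), with Xist at 0 to 0.004 FPKM. Hepatocyte markers were abundant in each library, their 10 genes summing to 59304 to 75559 FPKM under restricted and 52681 to 55988 under ad libitum feeding. The groups also differed in a property of the libraries. The summed FPKM of 87 genes lying opposite abundant genes was 6.97 to 8.58 in the dark restricted libraries and 30.1 to 35.8 in the dark ad libitum ones. Over all times the ranges were 6.97 to 8.58 in 8 restricted libraries and 23.4 to 40.7 in 8 ad libitum ones, with no overlap. The mitochondrial gene mt-Nd6, encoded on the strand opposite mt-Nd5, was at 0.633 to 2.56% of mt-Nd5 in dark restricted and 9.17 to 11.4% in dark ad libitum libraries. Feeding and this library difference cannot be told apart in these livers. Deposited FPKM also summed to 414653 to 518405 under restricted and 398416 to 399995 under ad libitum feeding.

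**Figure D1:**
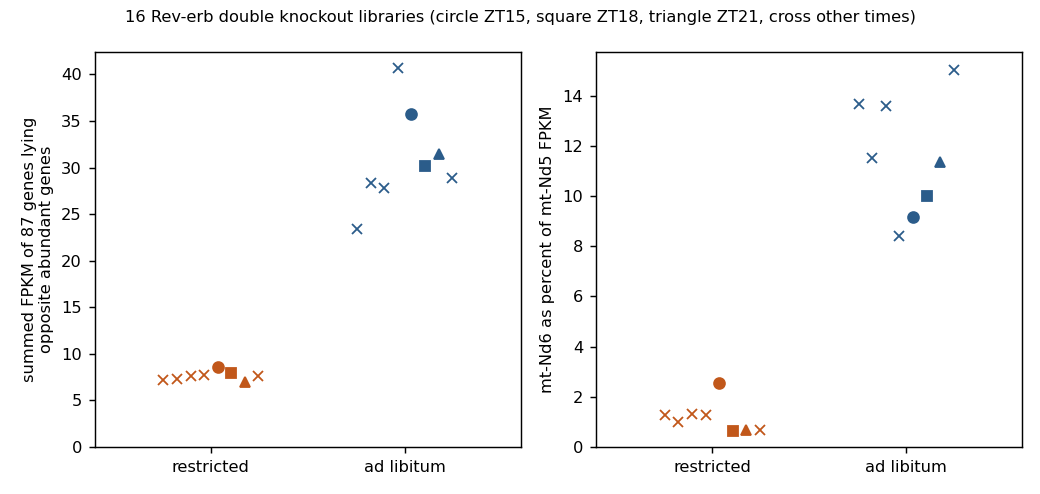
Each point is 1 of the 16 Rev-erb double knockout libraries; the left panel gives the summed FPKM of 87 genes lying opposite abundant genes and the right panel mt-Nd6 FPKM as a percentage of mt-Nd5 FPKM. The 8 restricted libraries lie at 6.97 to 8.58 and 0.633 to 2.56%, below the 8 ad libitum libraries at 23.4 to 40.7 and 8.40 to 15.02%.

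Several of the 6 libraries stood apart in groups of genes. The restricted ZT15 and ZT18 livers were far above the others in acute-phase genes: of 29 such genes, 28 had their highest value in the restricted ZT18 library, against 23.2% of all genes tested. The ad libitum ZT21 liver held the lowest value for 87% of 23 male-biased genes, against 11.6% of all genes. The restricted ZT21 liver held the highest value for 69.6% of the male-biased genes, against 17.1% of all genes. It was also the highest for 91.7% of 24 cholesterol synthesis genes and 88.9% of 18 endoplasmic reticulum chaperone genes. That library alone also carried traces of pancreatic enzyme transcripts: 9 of 11 such genes were listed at 0 in the other 5 libraries.

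The deleted genes were examined first. Nr1d1 was at 25.9, 16.1 and 4.82 FPKM at ZT15, ZT18 and ZT21 under restricted feeding, against 26.0, 23.1 and 10.6 under ad libitum feeding. Nr1d2 was at 15.1, 18.4 and 7.76 FPKM in restricted livers and at 17.8, 16.2 and 10.7 in ad libitum livers. The groups overlapped for both genes, and neither difference passed (-0.50 ± 0.51 for Nr1d1, adjusted p = 0.912, and -0.16 ± 0.65 for Nr1d2, adjusted p = 0.99). An FPKM value sums over every exon of a gene, and which exons were removed is not stated, so neither gene's level tests the deletion. Of 18 core clock genes tested, none passed limma's test, none had an unadjusted p under 0.05, and in none did the 3 restricted libraries lie wholly above or below the 3 ad libitum ones. Arntl, the target that REV-ERB represses, was at 9.17, 12.0 and 13.52 FPKM in restricted livers and 11.4, 10.9 and 12.4 in ad libitum livers, a difference of -0.01 ± 0.57. Dbp, a clock output factor, was at 18.6, 9.09 and 0.817 FPKM under restricted and 17.3, 11.02 and 3.38 under ad libitum feeding, low at ZT21 in both. Per2, a clock repressor, was at 5.97, 5.30 and 7.36 FPKM in restricted livers and 6.46, 4.25 and 2.93 in ad libitum livers, and the groups overlapped. The median difference over the clock list was -0.05, beside -0.03 over all genes tested.

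In the fit of all 67 libraries 14 of 9958 genes passed an adjusted p of 0.05 (0.141%), 3 higher (0.0301%) and 11 lower (0.11%) under restricted feeding. Of the 14, 6 were predicted or unnamed genes, and 9 lay opposite another gene or were pseudogenes. An unadjusted p under 0.05 was reached by 867 of the 9958 genes in limma's test, 328 higher and 539 lower. Counts of list members at that p are to be read beside these. Without regard to a test, all 3 restricted libraries lay on one side of all 3 ad libitum libraries for 2295 genes (23%), above for 934 (9.38%) and below for 1361 (13.7%). An alternative fit of the 16 ReverbLDKO libraries alone, which does not share its spread with the other genotypes, called 449 genes (4.51%), 159 higher (1.6%) and 290 lower (2.91%), and these included all 14. Below, "rose" and "fell" are kept for the 67-library fit, and calls of the 16-library fit are named as such. With the restricted ZT15 and ZT18 libraries left out, the counts were 3 in the 67-library and 718 in the 16-library fit (7.21%; 2.58% of genes higher and 4.63% lower).

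**Figure D2:**
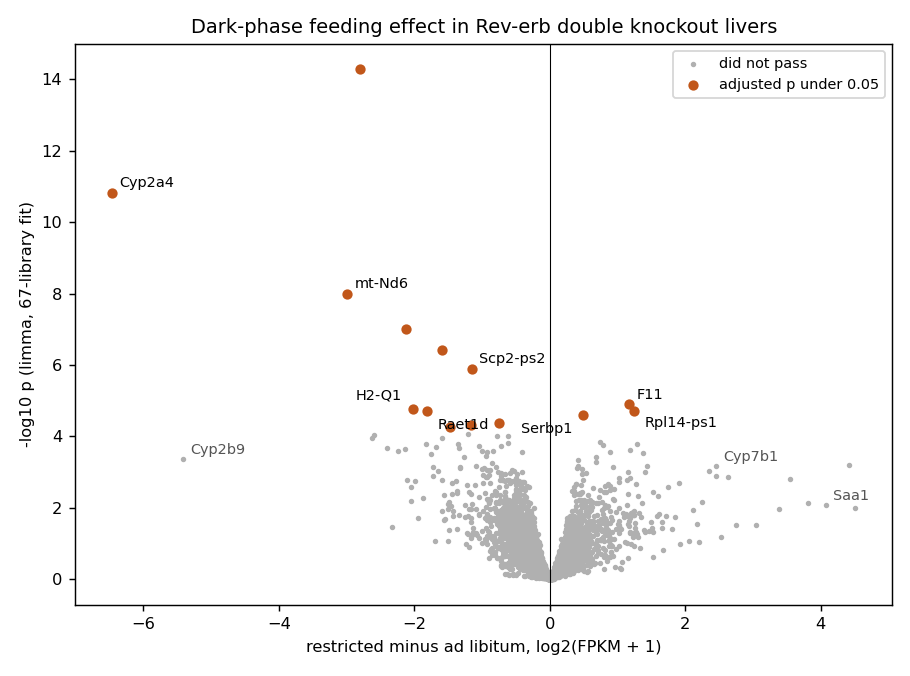
Each point is 1 of 9958 genes; the horizontal axis is the difference, restricted minus ad libitum, in log2(FPKM + 1) in the dark-phase Rev-erb knockout livers and the vertical axis is -log10 of limma's p. The 14 genes that passed are coloured and the named ones labelled, with Cyp2a4 farthest to the left at -6.46; Cyp2b9, Cyp7b1 and Saa1, which did not pass, are labelled in grey.

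The largest fall was in a female-biased cytochrome P450 gene. Cyp2a4, a steroid hydroxylase gene that is higher in female than male mouse liver (ENSMUSG00000074254.4, chr7:26307169-26315088, plus strand), was at 1.36, 0.227 and 0.258 FPKM at ZT15, ZT18 and ZT21 in restricted livers, against 151, 92.9 and 173 in ad libitum livers. Every restricted value lay far below every ad libitum value. Cyp2a4 fell by 6.46 ± 0.68 (adjusted p = 7.43e-08), a ratio of means of 0.00443, and passed with each library left out in turn. Without restricted ZT15 and ZT18 its difference was -6.75. Its near-copy Cyp2a5, a coumarin hydroxylase gene whose promoter differs at the 4 bases shown, was at 790, 226 and 306 FPKM under restricted and 712, 565 and 569 under ad libitum feeding. These groups overlapped, and the difference of -0.69 ± 0.78 did not pass (adjusted p = 0.924).

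Other tested female-biased genes were also lower, though not all at every time. Cyp2b9, another female-biased P450 gene (chr7:26173411-26210661, plus strand), was at 0.911, 0.173 and 0.371 FPKM in restricted livers and at 54.1, 26.7 and 156 in ad libitum livers. The groups were far apart, but the spread of this gene over the 67 libraries was wide and the difference of -5.42 ± 1.40 did not pass (adjusted p = 0.0962). In the 16-library fit it did (-5.42 ± 0.74, adjusted p = 0.00681). Cyp2b13, whose upstream sequence nearly equals that of Cyp2b9, was listed at 0 in all 3 restricted livers and at 2.57, 1.02 and 7.81 FPKM in ad libitum livers. Abcd2, a peroxisomal transporter gene for very long-chain fatty acids, was at 0.716, 2.27 and 0.917 FPKM in restricted and 5.0, 4.32 and 8.16 in ad libitum livers. Of 17 genes on the female-biased list only 6 had a mean of 1 FPKM or more over the 67 libraries and were tested. That mean includes the ad libitum libraries, so a gene such as Cyp2b13 can be tested through the libraries where it is high. Shares of the 6 may thus be partly set by this filter and are not a test. Of the 6, 1 fell, and 4 were lower in the 16-library fit (Cyp2a4, Cyp2b9, Cyp2b13 and Abcd2), beside 2.91% of all genes. Without overlap 5 lay below, beside 13.7% of all genes. At ZT15 and at ZT18, 1 of the 6 was higher in the restricted liver, and 1 had its highest value in restricted ZT18. Summed FPKM of all 17 listed genes was 120, 277 and 33.9 in restricted and 320, 221 and 473 in ad libitum livers. At ZT18 the restricted sum was thus the higher. The median of the 6 differences was -1.79, and 4 of the 6 had their highest value in the ad libitum ZT21 library, without which the median was -1.39.

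The time course shows when the ad libitum livers held these transcripts. Over the day, Cyp2a4 in ad libitum livers was at 3.07 and 6.01 FPKM at ZT3 and ZT6, at 83.3 and 112 at ZT9 and ZT12, and at 131 at ZT24. In restricted livers it was between 0.10 and 1.40 FPKM at those 5 times. Cyp2b9 in ad libitum livers was at 1.19, 5.46 and 11.8 FPKM at ZT3, ZT6 and ZT9 and at 75.5 and 158 at ZT12 and ZT24. The 2 genes were thus low early and high later in the ad libitum livers, while at ZT3 Cyp2b9 was the higher in the restricted liver, at 4.11 FPKM. With 1 library per time, time of day and the single liver cannot be told apart.

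**Figure D3:**
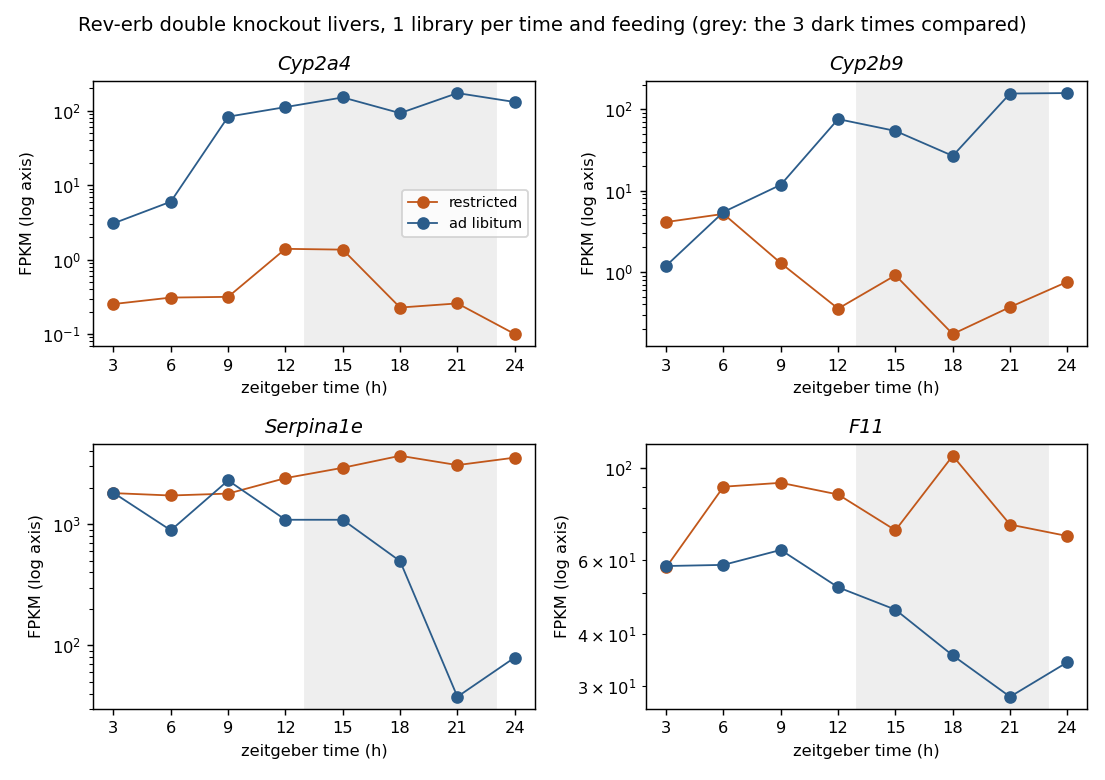
FPKM on a log axis against zeitgeber time in hours for 4 genes, with 1 library per time in restricted and ad libitum Rev-erb knockout livers and the 3 dark times shaded. Cyp2a4 lies between 0.10 and 1.40 FPKM at every restricted time, and Serpina1e reaches its lowest ad libitum value, 37.7 FPKM, at ZT21.

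Male-biased genes lay the other way, most of all at ZT21. Cyp7b1, an oxysterol hydroxylase of bile acid synthesis and a classical male-biased gene (chr3:18071950-18243338, minus strand), was at 280, 287 and 388 FPKM in restricted livers and 95.7, 61.0 and 31.3 in ad libitum livers. The groups did not overlap, and the gap widened from ZT15 to ZT21. Its difference of 2.45 ± 0.66 did not pass (adjusted p = 0.126) but did in the 16-library fit (± 0.31, adjusted p = 0.0028). Serpina1e, one of the alpha-1 antitrypsin genes, was at 2923, 3671 and 3076 FPKM in restricted livers and 1088, 496 and 37.7 in ad libitum livers. Moxd1, a monooxygenase-like gene, was at 83.9, 175 and 119 FPKM under restricted and 48.8, 23.1 and 0.332 under ad libitum feeding. Selenbp2, a selenium-binding protein gene, was at 185, 186 and 320 FPKM under restricted and 130, 51.9 and 4.33 under ad libitum feeding, and Hsd3b5, a male-specific hydroxysteroid dehydrogenase gene, was at 158, 112 and 225 against 80.7, 89.99 and 16.1. In each of these 4 genes the ad libitum ZT21 liver was the lowest by far. None passed in either fit, and without that library the differences were 2.13 for Serpina1e, 1.81 for Moxd1, 1.43 for Selenbp2 and 0.89 for Hsd3b5, against 3.54, 3.38, 2.75 and 1.66 with it.

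Of 23 male-biased genes, none passed (8 at an unadjusted p under 0.05), 22 were higher and 11 did not overlap between groups, beside 9.38% of all genes above without overlap. In the 16-library fit 4 were higher, Cyp7b1 and the complement genes C6, C8a and C8b, beside 1.6% of all genes. The median difference of the list was 0.29 at ZT15, 0.79 at ZT18 and 2.71 at ZT21, beside -0.06, 0.02 and -0.06 over all genes, and the 1.15 over the phase was 0.58 without the ad libitum ZT21 library. For 16 of the 23 the restricted ZT21 library was the highest, against 17.1% of all genes. Among 12 genes of growth hormone signalling, the pathway that sets the sex bias, none passed (2 at an unadjusted p under 0.05) and the median was -0.03. Of these 6 were higher and 6 lower, and 4 lay above without overlap (33.3%, beside 9.38% of all genes). The genes named next are all from the higher side. Egfr, a receptor gene raised by growth hormone, was at 60.4, 88.8 and 54.4 FPKM in restricted and 23.6, 40.4 and 9.93 in ad libitum livers (1.59 ± 0.53, adjusted p = 0.252; 0.0499 in the 16-library fit). Bcl6, a repressor of female-biased genes in mouse liver, was at 7.92, 2.81 and 4.85 FPKM in restricted and 1.42, 1.92 and 0.919 in ad libitum livers, without overlap (1.29 ± 0.65, adjusted p = 0.59). Igf1, the secreted growth factor that growth hormone induces, was at 75.8, 89.0 and 84.9 FPKM under restricted and 68.0, 63.2 and 57.8 under ad libitum feeding (0.40 ± 0.19, adjusted p = 0.548).

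Genes of clotting and complement proteins were higher under restricted feeding. F11, which encodes coagulation factor XI (chr8:45241174-45262031, minus strand), was at 70.9, 107 and 73.1 FPKM in restricted and 45.7, 35.5 and 28.3 in ad libitum livers, without overlap. It rose by 1.18 ± 0.23 (adjusted p = 0.0176), and the call was lost without restricted ZT18 (0.99, adjusted p = 0.215) or ad libitum ZT21 (1.01, adjusted p = 0.299). The F11 call was also lost under scaling to the same FPKM sum and in a fit of only the 6 libraries. Of the complement and coagulation list 26 genes were listed and 25 tested. Of those 1 rose, 13 lay above without overlap (52%, beside 9.38% of all genes) and 1 below, and 10 were higher in the 16-library fit (among them C1ra, C8b, F11 and Plg), beside 1.6% of all genes. Without restricted ZT15 and ZT18 the list median was 0.31, against 0.47 with them.

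Single members of this list show the pattern. C1ra, a protease of the first complement component, was at 96.1, 96.5 and 74.2 FPKM in restricted and 53.7, 55.4 and 43.9 in ad libitum livers (0.79 ± 0.19, adjusted p = 0.066; 0.0109 in the 16-library fit). C8b, a chain of the membrane attack complex, was at 188, 196 and 237 FPKM under restricted and 89.4, 112 and 50.3 under ad libitum feeding (1.36 ± 0.48, adjusted p = 0.295; 0.0103). Plg, the plasminogen gene, was at 1580, 1400 and 1115 FPKM in restricted and 746, 943 and 743 in ad libitum livers (0.75 ± 0.24, adjusted p = 0.218; 0.0241). In all 3 the groups were apart at every time. The exception was Mbl2, a lectin that starts the complement cascade, at 347, 212 and 279 FPKM in restricted and 393, 380 and 527 in ad libitum livers (-0.64 ± 0.24, adjusted p = 0.338).

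Among the genes nearest the threshold several more encoded clotting or plasma proteins. Cpb2, a carboxypeptidase that slows clot breakdown, was at 543, 933 and 331 FPKM in restricted and 219, 274 and 239 in ad libitum livers (1.18 ± 0.29, adjusted p = 0.0702). Kng1, the kininogen gene, was at 1119, 1155 and 649 FPKM under restricted and 495, 583 and 457 under ad libitum feeding (0.89 ± 0.22, adjusted p = 0.0712). Hrg, histidine-rich glycoprotein, was at 1158, 1128 and 712 FPKM in restricted and 540, 693 and 529 in ad libitum livers (0.74 ± 0.18, adjusted p = 0.066). For these 3 genes the restricted ZT21 liver lay closest to the ad libitum ones. Habp2, a plasma protease, was instead level across the restricted times, at 83.8, 79.2 and 74.7 FPKM against 49.2, 51.2 and 46.4 in ad libitum livers (0.68 ± 0.18, adjusted p = 0.0867). All 4 passed in the 16-library fit.

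Acute-phase genes split by library. Saa1, a serum amyloid gene, was at 9196 and 16119 FPKM at ZT15 and ZT18 but 187 at ZT21 in restricted livers, against 160, 224 and 159 in ad libitum livers. Saa2, its close copy, was at 8427, 14955 and 66.3 FPKM under restricted and 82.6, 107 and 78.5 under ad libitum feeding. Lcn2, the iron-scavenging lipocalin, was at 250, 1129 and 8.91 FPKM in restricted and 19.2, 20.3 and 33.2 in ad libitum livers. So 2 restricted livers were far above all others and the third was not. None of these differences passed (4.07 ± 1.46 for Saa1, adjusted p = 0.318), and Saa2, Lcn2 and Hp, the haptoglobin gene, turned to -0.41, -1.31 and -0.30 without the restricted ZT15 and ZT18 libraries. In the other 5 restricted libraries of this genotype Saa1 lay between 61.1 and 699 FPKM.

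Other acute-phase genes kept a gap at all 3 times. Orm1, the alpha-1 acid glycoprotein gene, was at 4276, 8451 and 1301 FPKM in restricted and 583, 800 and 748 in ad libitum livers (2.36 ± 0.66, adjusted p = 0.137; 0.0365 in the 16-library fit). Fga, the fibrinogen alpha chain gene whose upstream TTCCTGGAA is shown, was at 3920, 6714 and 2381 FPKM under restricted and 1419, 2186 and 1505 under ad libitum feeding (1.25 ± 0.50, adjusted p = 0.406; 0.0406). Fgb, the beta chain gene beside it, was at 3106, 4382 and 1738 FPKM in restricted and 1149, 1732 and 1204 in ad libitum livers (1.1 ± 0.45, adjusted p = 0.415; 0.0482). In both fibrinogen genes the restricted ZT21 liver lay just above the highest ad libitum value, that of ZT18. Of 29 acute-phase genes none passed (20 at an unadjusted p under 0.05), 28 were higher and 11 lay above without overlap (37.9%, beside 9.38% of all genes). In the 16-library fit 6 were higher (Saa4, Orm1, Fga, Fgb, Fgg and Itih3), beside 1.6% of all genes. The list median was 1.47 at ZT15, 1.89 at ZT18 and 0.21 at ZT21, and over the phase 1.17. It was 0.06 without restricted ZT15 and ZT18. Those libraries were set apart by these same genes, so that value is no test.

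Some markers of other cells were highest in the restricted ZT18 library. The neutrophil genes S100a8 and S100a9 were at 12.6, 115 and 1.37 FPKM and at 28.4, 201 and 4.49 FPKM in restricted livers, against 4.17, 2.63 and 5.27 and 5.32, 4.59 and 10.5 in ad libitum livers. The 16 Kupffer cell and leukocyte genes summed to 292 to 782 FPKM in restricted and 399 to 480 in ad libitum livers. The 782 FPKM, in restricted ZT18, included the 115 and 201 FPKM of S100a8 and S100a9. In that library 8 of the 16 were highest, beside 23.2% of all genes tested. The lymphocyte markers Cd3e and Ms4a1 stayed under 1 FPKM in all 6. The 13 endothelial genes summed to 73.8 to 124 FPKM in restricted and 91.2 to 102 in ad libitum livers, with 9 highest in restricted ZT18, beside the same 23.2%. The 11 stellate cell genes summed to 131 to 171 FPKM in restricted and 155 to 172 in ad libitum livers, with the highest sum in ad libitum ZT15. The 6 bile duct genes summed to 44.4 to 144 FPKM in restricted and 35.4 to 55.3 in ad libitum livers. None of the tested genes on these lists passed, and their part in the acute-phase values was not tested. In bulk tissue, fewer cells of a type and less RNA per cell cannot be told apart.

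**Figure D4:**
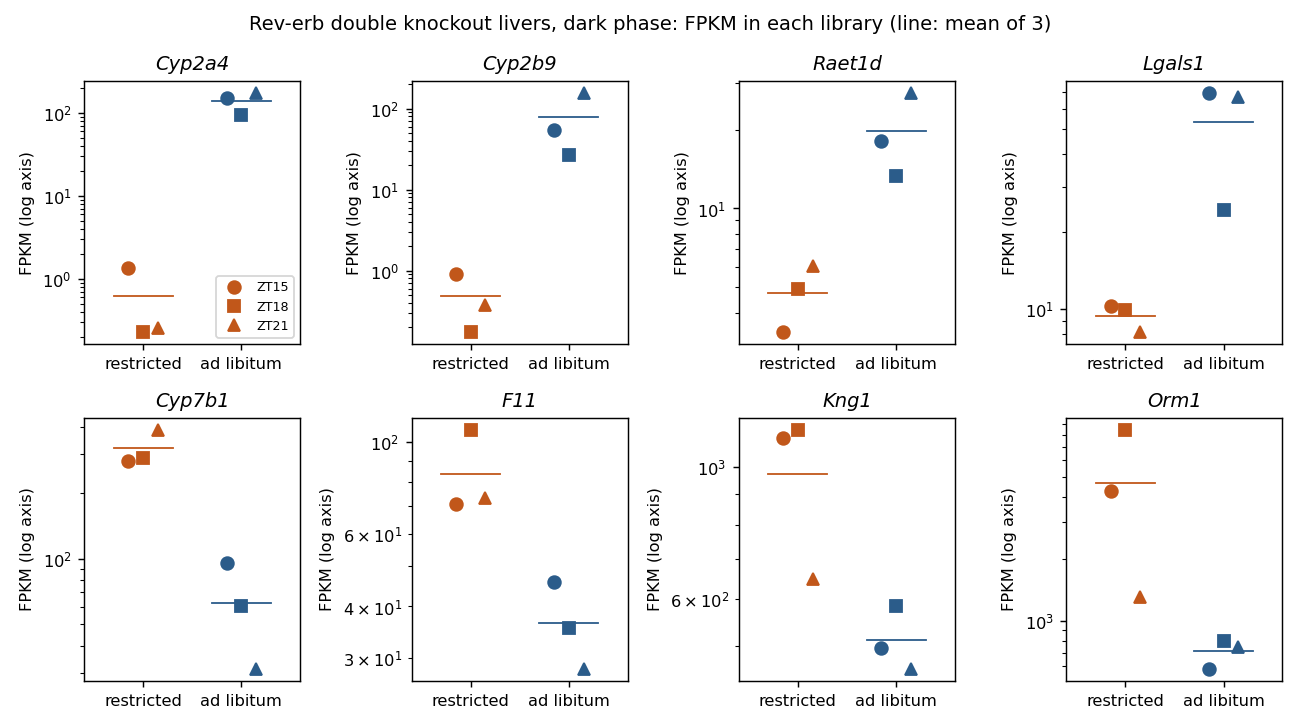
FPKM on a log axis in each of the 6 libraries for 8 genes, restricted on the left and ad libitum on the right of each panel, with a line at the mean of 3 libraries and symbols for ZT15, ZT18 and ZT21. The groups do not overlap in any of the 8 panels, and for Orm1 the restricted values run from 1301 to 8451 FPKM, against 583 to 800 in ad libitum livers.

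Chaperones of the secretory pathway were higher in restricted livers, most at ZT21. Hspa5, the main chaperone of the endoplasmic reticulum (ER), was at 394, 343 and 467 FPKM in restricted and 241, 245 and 168 in ad libitum livers (0.89 ± 0.48, adjusted p = 0.633). Creld2 and Manf, secreted factors induced by ER stress, were at 68.6, 57.0 and 71.5 and at 47.8, 49.3 and 57.9 FPKM under restricted feeding, against 26.4, 30.2 and 17.4 and 26.0, 23.6 and 17.3 under ad libitum feeding. Dnajb9, a co-chaperone of Hspa5, was at 67.6, 58.4 and 72.5 FPKM in restricted and 40.2, 33.4 and 30.7 in ad libitum livers (0.91 ± 0.56, adjusted p = 0.715; 0.0185 in the 16-library fit). All 18 genes of the list were higher, 10 without overlap (55.6%, beside 9.38% of all genes), and none passed (7 at an unadjusted p under 0.05). In 16 of the 18 the restricted ZT21 library was the highest, against 17.1% of all genes. The list median was 0.43, 0.56 and 1.13 at ZT15, ZT18 and ZT21, and over the phase 0.74, or 1.05 without restricted ZT15 and ZT18. These genes also varied widely outside the dark phase, Hspa5 running from 94.8 to 490 FPKM over the other 5 restricted libraries.

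Heat-shock genes lay on the same side. Hspd1, the mitochondrial chaperonin, was at 115, 108 and 109 FPKM in restricted and 83.4, 82.7 and 75.1 in ad libitum livers (0.46 ± 0.19, adjusted p = 0.426; 0.0251 in the 16-library fit). Of 15 heat-shock and cold-inducible genes 13 were higher, 7 without overlap (46.7%, beside 9.38% of all genes), and none passed (4 at an unadjusted p under 0.05). In 80% of them the ad libitum ZT21 library was the lowest, against 11.6% of all genes. Tmed10, a cargo receptor of early secretory vesicles, was at 17.4, 21.8 and 19.5 FPKM in restricted and 14.8, 14.2 and 14.3 in ad libitum livers (0.41 ± 0.11, adjusted p = 0.126). Serbp1, which encodes an mRNA-binding protein (chr6:67238176-67297736, plus strand), was at 33.3, 31.3 and 32.5 FPKM in restricted and 23.2, 23.2 and 22.2 in ad libitum livers, tight within each group. It rose by 0.48 ± 0.10 (adjusted p = 0.0233). The call was lost when 5 of the 6 libraries were left out in turn, with differences of 0.46 to 0.51 there, under scaling to the same FPKM sum (0.25), and with zeitgeber time as a block (0.48, adjusted p = 0.0723).

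The other named calls were a stress ligand and 3 transcripts of uncertain reading. Raet1d, a ligand of the natural killer cell receptor NKG2D (chr10:22360552-22374139, plus strand), was at 3.37, 4.92 and 6.02 FPKM in restricted and 18.2, 13.3 and 27.6 in ad libitum livers, without overlap. It fell by 1.81 ± 0.37 (adjusted p = 0.019), and the call was lost without restricted ZT15 (-1.62), restricted ZT18 (-1.84), ad libitum ZT15 (-1.84) or ad libitum ZT21 (-1.55), and with zeitgeber time as a block (-1.81, adjusted p = 0.0562). H2-Q1, a non-classical MHC class I gene below the level set for naming and chosen after its values were seen, was at 0.880, 0.591 and 1.31 FPKM in restricted and 8.38, 5.02 and 7.06 in ad libitum livers (-2.01 ± 0.41, adjusted p = 0.019). Its call was kept without restricted ZT21 or ad libitum ZT18 and lost without any of the other 4 libraries, and with a pseudocount of 0.1. The pseudogene Rpl14-ps1 was at 35.1, 21.7 and 30.9 FPKM under restricted and 9.94, 12.0 and 12.8 under ad libitum feeding and rose by 1.24 ± 0.26 (adjusted p = 0.019), a call lost without restricted ZT15 (1.1), ad libitum ZT15 (1.15) or ad libitum ZT21 (1.32), and with zeitgeber time as a block (1.24, adjusted p = 0.0535). The pseudogene Scp2-ps2 was at 6.25, 7.97 and 9.09 FPKM in restricted and 17.5, 17.7 and 19.7 in ad libitum livers and fell by 1.15 ± 0.20 (adjusted p = 0.00209). Reads of a pseudogene and its parent gene can be divided in counting. The mitochondrial gene mt-Nd6, already named as a mark of the library difference, was at 27.7, 15.1 and 10.7 FPKM in restricted and 136, 125 and 156 in ad libitum livers and fell by 2.99 ± 0.41 (adjusted p = 3.35e-05).

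Among detoxification genes, some glutathione transferases and NRF2 targets lay lower in restricted livers, with none past the threshold. Gstm3 and Gstm4, glutathione transferases, were at 28.6, 15.02 and 38.3 and at 16.4, 13.3 and 15.8 FPKM under restricted feeding, against 139, 46.6 and 123 and 35.3, 25.0 and 37.8 under ad libitum feeding. Their differences were -1.82 ± 0.44 and -1.04 ± 0.25 (adjusted p = 0.066 each), and both passed in the 16-library fit (0.0406 and 0.00529). Nqo1, a quinone reductase and a standard target of the stress factor NRF2, was at 3.59, 3.43 and 1.22 FPKM in restricted and 10.02, 5.56 and 10.02 in ad libitum livers (-1.38 ± 0.41, adjusted p = 0.168; 0.0337). Srxn1, which repairs oxidised peroxiredoxins, was at 11.4, 14.5 and 11.3 FPKM in restricted and 24.2, 15.5 and 29.0 in ad libitum livers, close to overlap at ZT18. Of 13 NRF2 target genes tested none passed (4 at an unadjusted p under 0.05). Of the 13, 10 were lower, 6 without overlap (46.2%, beside 13.7% of all genes). In the 16-library fit 4 were lower (Nqo1, Srxn1, Gstm3 and Ephx1), beside 2.91% of all genes. The median was -0.62, or -0.36 without restricted ZT15 and ZT18.

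Most genes of lipid storage and fatty acid use lay lower in restricted livers, with none past the threshold. Plin4, a coat protein of lipid droplets, was at 2.04, 1.83 and 0.581 FPKM in restricted and 6.38, 6.07 and 6.24 in ad libitum livers, without overlap (-1.60 ± 0.37, adjusted p = 0.0569; 0.00389 in the 16-library fit). Cidec, which fuses lipid droplets, was at 0.630, 0.455 and 0.171 FPKM in restricted and 3.93, 1.31 and 1.95 in ad libitum livers (-1.20 ± 0.76, adjusted p = 0.73; 0.03). Cd36, a fatty acid transporter, was at 10.5, 28.6 and 9.93 FPKM under restricted and 47.4, 26.3 and 61.4 under ad libitum feeding, overlapping at ZT18. Plin2, the main droplet coat protein of hepatocytes, was at 101, 76.5 and 121 FPKM in restricted and 147, 150 and 170 in ad libitum livers (-0.66 ± 0.34, adjusted p = 0.592). Of 15 lipid droplet and uptake genes none passed (1 higher and 2 lower at an unadjusted p under 0.05), 14 were lower and 6 lay below without overlap (40%, beside 13.7% of all genes). The median was -0.23, -0.47 and -0.75 at ZT15, ZT18 and ZT21, and over the phase -0.49, or -0.996 without restricted ZT15 and ZT18.

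Fatty acid oxidation differed by time as well. Ppara, the receptor that drives oxidation genes in fasting, was at 8.44, 18.7 and 20.4 FPKM in restricted and 27.2, 35.1 and 24.5 in ad libitum livers (-0.90 ± 0.32, adjusted p = 0.295). Cpt1a, the gate for fatty acids into mitochondria, was at 63.5, 69.2 and 58.9 FPKM in restricted and 84.5, 95.3 and 97.0 in ad libitum livers (-0.52 ± 0.32, adjusted p = 0.7; 0.0472 in the 16-library fit). Fgf21, a fasting hormone gene, was at 2.90, 4.33 and 2.65 FPKM under restricted and 8.11, 8.80 and 8.13 under ad libitum feeding (-1.14 ± 0.53, adjusted p = 0.52; 0.00618). For all 3 genes the groups were apart at every time. Of 25 oxidation and ketogenesis genes none passed (4 at an unadjusted p under 0.05), 23 were lower and 7 lay below without overlap (28%, beside 13.7% of all genes), with 4 lower in the 16-library fit (Cpt1a, Ehhadh, Acaa1b and Fgf21), beside 2.91% of all genes. The list median was 0.06 at ZT15, -0.43 at ZT18 and -0.63 at ZT21, and over the phase -0.24, or -0.47 without restricted ZT15 and ZT18.

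Lipid synthesis had the opposite order of times. Scd1, the main fatty acid desaturase of liver, was at 986, 222 and 644 FPKM in restricted and 1562, 1519 and 1354 in ad libitum livers (-1.50 ± 0.84, adjusted p = 0.663). Me1, malic enzyme, was at 8.90, 6.28 and 11.5 FPKM under restricted and 24.9, 19.6 and 31.5 under ad libitum feeding (-1.42 ± 0.54, adjusted p = 0.359; 0.0207 in the 16-library fit). Both were apart at every time. Of 17 fatty acid synthesis genes none passed (4 at an unadjusted p under 0.05), 16 were lower and 3 lay below without overlap (17.6%, near the 13.7% of all genes). The list median was -1.03, -0.38 and -0.13 at ZT15, ZT18 and ZT21, and over the phase -0.46, or -0.09 without restricted ZT15 and ZT18. Cholesterol synthesis genes changed sides over the night, with medians of -0.57, 0.38 and 0.71. Cyp51, lanosterol demethylase, was at 8.37, 16.7 and 40.5 FPKM in restricted and 11.3, 6.25 and 10.9 in ad libitum livers. Insig1, which holds back the sterol sensor, was at 33.6, 54.1 and 113 FPKM under restricted and 53.9, 27.7 and 44.9 under ad libitum feeding. In 22 of 24 cholesterol genes the restricted ZT21 library was the highest, against 17.1% of all genes, and none passed (1 at an unadjusted p under 0.05). Their median over the phase was 0.20, or 1.04 without restricted ZT15 and ZT18.

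**Figure D5:**
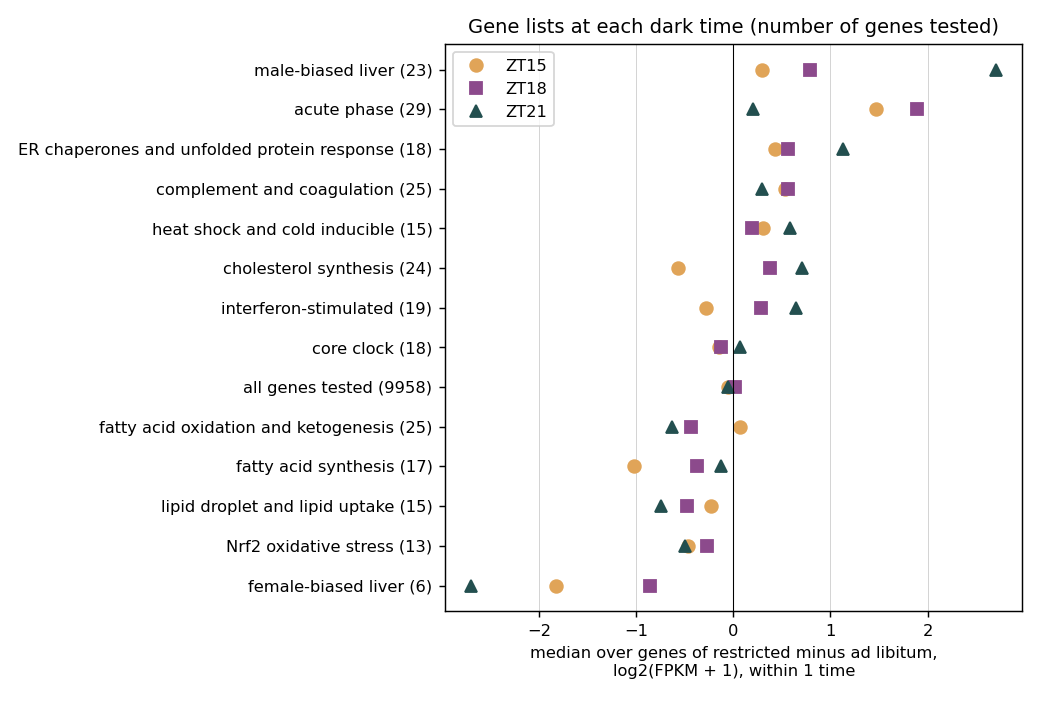
For 13 gene lists and all genes tested, the median over genes of restricted minus ad libitum log2(FPKM + 1) within ZT15 (circle), ZT18 (square) and ZT21 (triangle), each a difference of 1 library from 1 library; the number of genes is in brackets. Acute-phase genes are highest at ZT15 and ZT18 (1.47 and 1.89, against 0.21 at ZT21) and male-biased genes at ZT21 (2.71), while all genes lie at -0.06, 0.02 and -0.06.

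Genes of carbohydrate, bile acid and amino acid handling were examined next. Gckr, which holds glucokinase inactive, was at 37.9, 27.3 and 30.1 FPKM in restricted and 55.7, 43.2 and 53.7 in ad libitum livers (-0.67 ± 0.24, adjusted p = 0.318; 0.021 in the 16-library fit). Ugp2 and Gbe1, of glycogen synthesis, also passed there (0.0432 and 0.0167), at -0.74 ± 0.37 and -0.61 ± 0.26 in the 67-library fit. Of 23 glucose and glycogen genes none passed (4 at an unadjusted p under 0.05), and 4 lay below without overlap (17.4%, near the 13.7% of all genes). Slco1a4, a sinusoidal transporter of bile acids and drugs, was at 11.4, 5.84 and 8.80 FPKM in restricted and 25.2, 26.6 and 24.2 in ad libitum livers (-1.49 ± 0.71, adjusted p = 0.542; 0.00751). Of 18 bile acid genes none passed (3 at an unadjusted p under 0.05), 2 lay above and 2 below without overlap (11.1% each, near the 9.38% and 13.7% of all genes). Oat, an aminotransferase that degrades ornithine, was at 457, 346 and 425 FPKM under restricted and 743, 772 and 954 under ad libitum feeding (-1.01 ± 0.25, adjusted p = 0.0702; 0.0257). Slc1a4, a transporter of neutral amino acids, was at 8.75, 13.7 and 3.65 FPKM in restricted and 2.54, 1.55 and 2.79 in ad libitum livers (1.43 ± 0.39, adjusted p = 0.126; 0.0365).

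The remaining genes near the threshold were of mixed function. Lgals1, which encodes the sugar-binding protein galectin-1, was at 10.3, 9.91 and 8.15 FPKM in restricted and 69.2, 24.2 and 67.04 in ad libitum livers (-2.24 ± 0.56, adjusted p = 0.0702). Anxa5, the phospholipid-binding annexin A5, was at 41.1, 58.6 and 41.9 FPKM under restricted and 111, 62.4 and 88.5 under ad libitum feeding (-0.85 ± 0.23, adjusted p = 0.114). Malat1, a nuclear long non-coding RNA, was at 4.11, 5.03 and 4.92 FPKM in restricted and 12.9, 10.02 and 18.7 in ad libitum livers (-1.35 ± 0.32, adjusted p = 0.066). In these 3 genes no restricted value reached an ad libitum one. Med22, a Mediator subunit, was also apart (-0.62 ± 0.14, adjusted p = 0.0539). Metallothionein genes followed the acute-phase libraries, Mt1 at 815, 1889 and 27.2 FPKM in restricted and 124, 188 and 212 in ad libitum livers.

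Other lists held no gene that passed. Interferon-stimulated genes had medians of -0.28, 0.28 and 0.64 at ZT15, ZT18 and ZT21, with the highest value in the restricted ZT21 library for 13 of 19 genes, against 17.1% of all genes, and none at an unadjusted p under 0.05. Their median over the phase was 0.23, or 0.68 without restricted ZT15 and ZT18, that is, with ZT21 as the only restricted library. Genes of xenobiotic metabolism, the drug-handling enzymes of hepatocytes, had medians of 0.15, -1.12 and -0.30 over 18 genes, 4 of them at an unadjusted p under 0.05. Glucocorticoid targets had 0.20, 0.53 and -0.10 over 10 genes. Genes of the urea cycle and amino acid breakdown had a median of -0.18 over the phase (20 genes, with 20% below and 10% above without overlap, beside 13.7% and 9.38% of all genes), and autophagy and lysosome genes -0.14 (14 genes, with 28.6% below without overlap, beside 13.7%). Red cell genes, which report blood in the tissue, summed to 334 to 883 FPKM in restricted and 656 to 1052 in ad libitum livers over 6 genes.

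Whether the feeding effect differed between dark and light was tested as dark minus light. No gene of 9958 passed limma's test (0%), with 295 at an unadjusted p under 0.05 and a smallest adjusted p of 0.217, and none passed with limma voom on recovered reads of 5811 genes. Lrit1, Dnajc28 and Gas7 had the smallest p, with differences of effects of -1.61 ± 0.35, -0.98 ± 0.22 and -0.99 ± 0.22. Gas7, a cytoskeletal gene, was at 0.492, 0.825 and 1.23 FPKM in restricted and 1.39, 1.57 and 2.18 in ad libitum livers in the dark. Per1, a light-responsive and feeding-responsive clock gene, had a difference of effects of 1.46 ± 0.42 (unadjusted p = 0.00139, adjusted p = 1). Jun, an immediate early gene at 5.10, 13.2 and 7.84 FPKM in restricted and 10.3, 5.78 and 6.87 in ad libitum livers in the dark, had 1.75 ± 0.51 (unadjusted p = 0.00153, adjusted p = 1). Cyp2a4 had -3.09 ± 0.97 (unadjusted p = 0.00286, adjusted p = 1), so its dark effect was not shown to differ from its light effect. The acute-phase median was 1.17 in the dark and 0.23 in the light, and the male-biased median 1.15 and 0.28.

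Set against WT, the dark feeding effect differed for 2266 genes (22.8%), 1477 higher and 789 lower in ReverbLDKO. The WT dark libraries were at ZT16 and ZT20, so this contrast and its single-gene values compare unlike times. The share of the genes that goes with sampling time was not tested. The opposite-strand property of the libraries runs the other way round with feeding in WT, as mt-Nd6 shows: its feeding effect was -2.99 in ReverbLDKO and 3.73 in WT, a difference of -6.72 ± 0.55 (adjusted p = 1.71e-11). WT libraries also differed by feeding in the slope of their log2 values on gene GC content. The median slope was 0.249 in dark ad libitum and -0.714 in dark restricted WT libraries. In ReverbLDKO it was 0.093 and -0.007. The share of the 2266 genes that goes with these library properties was not tested. With GC content and length corrected the count was 686 of 9581 genes. Cyp2a4 had a feeding effect of -6.46 in ReverbLDKO and -0.01 in WT, a difference of -6.45 ± 0.91 (adjusted p = 5.11e-06), and after the GC correction -6.80 (adjusted p = 3.41e-06). Raet1d had effects of -1.81 in ReverbLDKO and 0.20 in WT (-2.01 ± 0.49, adjusted p = 0.00329). Hp had effects of 1.35 in ReverbLDKO and -1.35 in WT (2.70 ± 0.72, adjusted p = 0.00654; 0.1 after the correction), and its ReverbLDKO effect was -0.30 without restricted ZT15 and ZT18. Gstm3 had effects of -1.82 in ReverbLDKO and -0.18 in WT (-1.65 ± 0.58, adjusted p = 0.0356). For F11 and Cyp7b1 the effects in ReverbLDKO were 1.18 and 2.45 and in WT 0.74 and 1.87, and the differences of 0.44 ± 0.31 and 0.58 ± 0.88 did not pass (adjusted p = 0.319 and 0.68).

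Set against CryDKO, 3 genes differed (0.0301%), Cyp2a4, mt-Nd6 and a predicted gene, with 438 at an unadjusted p under 0.05. Cyp2a4 had a feeding effect of -6.46 in ReverbLDKO and 0.06 in CryDKO, a difference of -6.52 ± 0.97 (adjusted p = 0.000267). Its effect in the dark Bmal1LKO livers, at ZT16 and ZT20, was -0.22, and the difference from Bmal1LKO was not tested. Cyp2b9 had effects of -5.42 in ReverbLDKO, -0.57 in WT and 0.79 in CryDKO, and its differences did not pass (adjusted p = 0.0543 against WT and 0.57 against CryDKO).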

How the data were processed

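Per the labels' protocols, liver RNA was made into stranded mRNA libraries. The authors deposited FPKM values of 45808 gene rows; per the submitters' processing notes STAR, featureCounts, DESeq2 and GRCm38 were used, with no strand setting or version stated. By symbol, 41893 genes matched GENCODE release 21. Low FPKM values fell on whole reads within 0.1 reads for 84.4 to 88.4% of a library's low values, which gave its depth.

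The 9958 genes averaging 1 FPKM or more over 67 libraries were analysed as log2(FPKM + 1), which understates changes of low genes. Limma 3.58.1 (R 4.3.3) fitted a level for each of 32 groups of genotype, feeding and phase, with trend and robust variance and 35 residual degrees of freedom. Contrasts were the dark feeding effect and its differences from light, WT and CryDKO, with Benjamini-Hochberg adjustment over all genes. The text says that groups did not overlap where the 3 restricted libraries lie on one side of the 3 ad libitum ones. On simulated data, 56 of 100 genes changed by 1 log2 unit and 93 of 100 changed by 2 were recovered, and 6 unchanged genes were called.

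The members and the 31 lists were chosen with earlier results of these data known. Up to 12 genes per direction with a mean of at least 5 FPKM, the clock list, up to 4 passing members per list and 6 genes per difference were named, with list members that did not pass given by value; a few genes are not reported here. Alternatives changed the pseudocount (0.1), filter, scaling, GC correction, libraries fitted, time terms, weights and test. A 16-library fit, recovered reads (voom, 5811 genes), and left-out libraries were among them; those leaving out restricted ZT15 and ZT18 together, or genes opposite another gene, were chosen after seeing the data. FPKM steps depend on gene length, so no count test was a main result. Python 3.11.15, pandas 2.3.3 and matplotlib 3.10.9 made tables and figures.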

Additional observations from a re-analysis of the deposited data

Results flagged for a closer look

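These results met a rule for a difference of the dark feeding effect between genotypes that was itself tested in the 67-library fit. Each value is the effect in ReverbLDKO minus that in WT, in log2, with the WT dark libraries at ZT16 and ZT20. Cyp2a4 differed by -6.45 and, against CryDKO, by -6.52. The mitochondrial gene mt-Nd6 differed by -6.72 and, against CryDKO, by -3.39, alongside the library property described for it. Higher in ReverbLDKO were Hp at 2.70, Rpl14-ps1 at 1.15, Per1 at 1.1 and Habp2 at 0.65. Lower in ReverbLDKO were Malat1 at -2.79, Raet1d at -2.01, Gstm3 at -1.65, Gclc, a subunit of the glutathione-making enzyme, at -1.26, Pcmtd2 at -1.24, Gbe1 at -1.03, Scp2-ps2 at -0.75, Hspd1 at -0.70 and Gas7 at -0.65. With GC content and length corrected, Cyp2a4, mt-Nd6, Malat1, Raet1d (adjusted p = 0.0254), Gstm3 (0.0198), Pcmtd2 (0.00245) and Gas7 (0.0314) still passed against WT. The other 8 no longer passed there: Hp was at 1.81 (adjusted p = 0.1), Rpl14-ps1 at 0.56 (0.222), Per1 at 0.31 (0.641), Habp2 at 0.26 (0.547), Gclc at -1.17 (0.102), Gbe1 at -0.53 (0.341), Scp2-ps2 at -0.82 (0.205) and Hspd1 at -0.79 (0.144). The part of the library difference between feeding groups in these values was not tested.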

How the results depend on the processing

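Counts of genes past the threshold moved with the processing, and the cause was not tested unless the setting itself names it. Most settings tested 9958 genes. No filter tested 27875, the filter over the 6 libraries 9793 and the GC correction 9581. Voom tested 5811 and the setting without genes opposite another gene 6648. Counts from these settings are thus not on the same base. For the dark feeding effect (14 genes) the count was 22 with a pseudocount of 0.1, 121 with no filter on low values, 22 with the filter set over the 6 libraries, 161 with scaling to the same FPKM sum, 65 with GC content and length corrected, 449 in the 16-library fit, 45 with only the 6 libraries, 83 with a 24 h cosine and sine, 270 with library weights and 2 with voom on recovered reads. It was 3 without restricted ZT15 and ZT18, 718 in the 16-library fit without them, and 4 without genes opposite another gene. Leaving out each library in turn gave 6 (ad libitum ZT21) to 43.

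For dark minus light (0 genes) the count was 3 with no filter, 1 with zeitgeber time as a block, 1 with the cosine and sine and 11 with library weights. Leaving out each library gave 0 to 0. Against WT (2266 genes) it was 686 with the GC correction, 1455 with voom, 580 without restricted ZT15 and ZT18, 1449 without genes opposite another gene and 1336 to 2276 with each library left out. Against CryDKO (3 genes) it was 6 with the smaller pseudocount, 19 with no filter, 8 with the same sum, 8 with the GC correction, 6 with the cosine and sine, 33 with library weights, 0 with voom, 0 without genes opposite another gene and 3 to 8 with each library left out.

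WT libraries share replicate numbers between feedings. In 5 pairs their deviations correlated at 0.40 (ZT4), 0.63 (ZT8), 0.61 (ZT16), 0.54 (ZT20) and -0.29 (ZT24). The main fit did not pair them by number. With a replicate block for WT the counts were 48 for the dark effect, 2711 against WT and 6 against CryDKO. In ReverbLDKO each dark time pairs 1 restricted with 1 ad libitum library; with zeitgeber time as a block the dark effect had 17 genes.

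Small differences changed sign. With each library left out in turn, Nr1d1 ran from -0.97 to 0.13, Nr1d2 from -0.39 to 0.18 and Dbp from -1.21 to 0.51 (each highest without restricted ZT21), Arntl from -0.13 to 0.13 (highest without restricted ZT15; 0.03 without ad libitum ZT21), Jun from -0.20 to 0.41 (lowest without restricted ZT18; -0.04 without ad libitum ZT18), Mt1 from -0.17 to 2.86 and Mt2 from -0.42 to 3.13 (both lowest without restricted ZT18). Arntl was 0.03 with median-of-ratios scaling, 0.00 with the cosine and sine, 0.06 with library weights and 0.21 without restricted ZT15 and ZT18 in both fits. Per1 was 0.25 with the cosine and sine, and Jun -0.10 with the same sum. Without restricted ZT15 and ZT18, in both fits, Saa2 was -0.41, Lcn2 -1.31, Hp -0.30, Mt1 -2.60 and Mt2 -3.09. With 3 libraries per group, differences within the spread between libraries were not detectable.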
